A study of Rattus norvegicus with 3 samples.

Results

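The 42 genes described here encode proteins of G2 phase and mitosis. They were chosen by name from what their products do, with earlier results of these data known. Every one was found in the gene table, 42 of its 18425 genes. Retinas came from wild-type Sprague-Dawley rats that received 1 µl into the vitreous at P1 and were collected at P4. The injected liquid was citrate buffer (pH 4.5), saline, or 10 µg of streptozotocin (STZ), an alkylating agent dissolved in citrate buffer and then diluted. STZ damages DNA, and the study asked how it acts on the newborn retina, which still holds dividing progenitors. For its intravitreal experiments the study describes STZ in an animal's right eye and citrate buffer in its left. Whether the sequenced STZ and citrate buffer retinas were such fellow eyes is not stated. Each condition has 1 RNA sequencing library, and the number of animals behind a library is not given in the sources used here. Every difference below is therefore a difference between 3 libraries, without a replicate check and without a p-value.

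A cell that has copied its DNA enters mitosis when cyclin B and the kinase Cdk1 are activated together, a step that Wee1 holds back and Cdc25 phosphatases release. Aurora and Polo kinases then build the spindle, the checkpoint proteins wait until every kinetochore is attached, and the anaphase-promoting complex destroys cyclin B so that the chromosomes separate and the cell divides. The RNAs of these proteins rise in G2 and are kept low in G1 and in resting cells. That rhythm is known to depend on a short promoter element, the cell cycle genes homology region (CHR), which is bound by the DREAM complex in resting cells and by the B-Myb and FoxM1 complexes in G2, often next to CCAAT boxes bound by NF-Y. After DNA damage, p53 raises p21, the product of Cdkn1a, and p21 promotes the formation of DREAM.

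The promoters of 6 members are shown because these genes span the measured differences: Mki67 was the lowest and Ckap2 the highest member in the STZ library, Ccnb1 and Cdc25b were higher, and Cdk1 and Bub3 lay close to the controls. Each sequence is the 150 bases before the RefSeq start site in the assembly GRCr8, 5′ to 3′ on the gene's strand, with CHR letters and CCAAT boxes in capitals. CHR letters are TTTGAA, its variant TTCGAA and the further spelling TTTAAA, and a CCAAT box on the other strand reads ATTGG. The 6 stretches lie at chr1:199952594-199952743 on the minus strand for Mki67, chr16:76541964-76542113 on the plus strand for Ckap2, chr2:33655226-33655375 on the minus strand for Ccnb1, chr20:19265143-19265292 on the plus strand for Cdk1, chr3:138860023-138860172 on the plus strand for Cdc25b and chr1:195760382-195760531 on the plus strand for Bub3.
Mki67: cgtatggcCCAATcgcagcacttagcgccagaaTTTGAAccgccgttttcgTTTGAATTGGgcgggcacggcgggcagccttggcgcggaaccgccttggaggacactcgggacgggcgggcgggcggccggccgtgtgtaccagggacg
Ckap2: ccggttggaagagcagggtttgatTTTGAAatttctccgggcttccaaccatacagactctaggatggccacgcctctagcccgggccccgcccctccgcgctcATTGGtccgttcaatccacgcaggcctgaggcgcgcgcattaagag
Ccnb1: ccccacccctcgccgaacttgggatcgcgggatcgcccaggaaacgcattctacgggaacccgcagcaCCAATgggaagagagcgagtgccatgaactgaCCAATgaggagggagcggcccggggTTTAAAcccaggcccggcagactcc
Cdk1: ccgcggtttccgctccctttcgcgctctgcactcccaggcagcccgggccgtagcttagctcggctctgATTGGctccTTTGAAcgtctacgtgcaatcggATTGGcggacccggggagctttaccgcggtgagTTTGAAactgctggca
Cdc25b: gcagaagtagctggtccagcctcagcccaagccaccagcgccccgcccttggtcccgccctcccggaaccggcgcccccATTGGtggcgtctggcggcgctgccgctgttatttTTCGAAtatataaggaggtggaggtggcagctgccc
Bub3: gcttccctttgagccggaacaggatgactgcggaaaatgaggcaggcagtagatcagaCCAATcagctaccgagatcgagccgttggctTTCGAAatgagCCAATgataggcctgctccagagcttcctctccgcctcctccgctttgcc
All 6 hold CHR letters and a CCAAT box. In the Mki67 promoter the second TTTGAA and a CCAAT box on the other strand share a base.

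RefSeq promoters, windows of 300 bases from 250 before to 50 after a start site, were found for 35 of the 42 members. The members without one were Aurkb, Ccna2, Incenp, Racgap1, Tpx2, Ube2c and Wee1. Every one of the 35 genes had CHR letters on either strand, in 35 of 36 windows (97.2%), since Kif2c has 2 start sites of which 1 lacked them. Of all 33469 windows in the table, 29.4% held the same letters, as did 21.4% of the 13201 windows of genes with a mean of at least 10 reads. TTTGAA was in 25 windows (69.4%, against 18.3% of all), TTCGAA in 4 (11.1%, against 1.69%) and TTTAAA in 13 (36.1%, against 13.6%). TTCGAA and TTTAAA read the same on both strands. CCAAT was found in 28 member windows (77.8%, against 37.5% of all), and both elements stood together in 28 (77.8%, against 11.8%). The letters also lay close to the start. In 27 of the 35 genes (77.1%) a copy began within the 100 bases before the start site, against 10.5% of all windows.

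**Figure D1:**
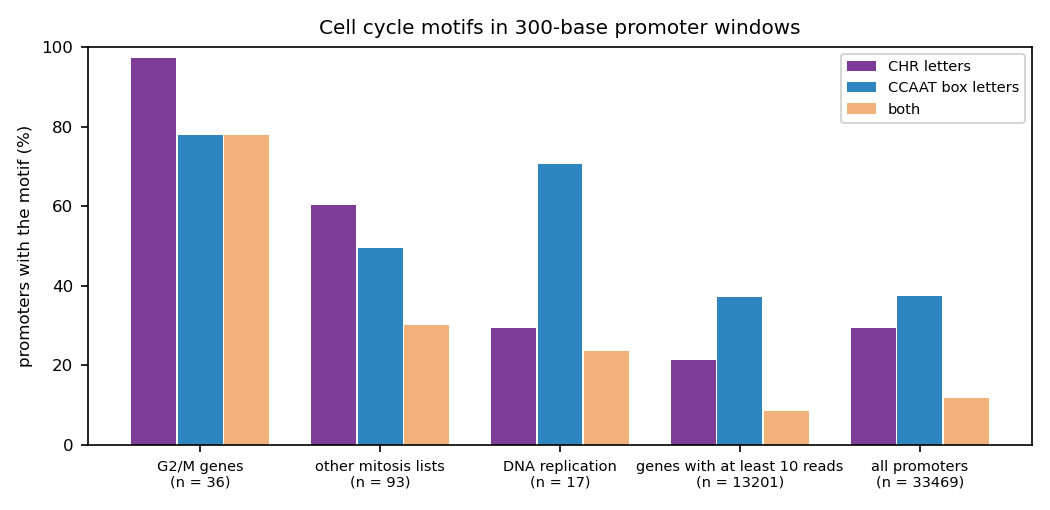
Bars give the percent of 300-base RefSeq promoter windows (vertical axis) that hold CHR letters, CCAAT letters or both, for the G2/M genes, other mitosis lists, DNA replication genes, genes with at least 10 reads and all promoters. CHR letters were in 97.2% of G2/M windows, 60.2% of windows of the other mitosis lists and 29.4% of those of DNA replication genes, which had CCAAT in 70.6%.

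All members with a promoter held CHR letters, so only the spelling differed among them. Mki67 and Ckap2, at the opposite ends of the measured range, both held TTTGAA. The 25 genes with TTTGAA had count ratios in STZ against citrate buffer from 0.686 to 1.66, with a median of 0.951. In the 10 genes with only the other spellings the ratios ran from 0.909 to 1.31 with a median of 1.08. Of the members described below as higher in STZ against both controls by counting interval, 3 had TTTGAA and 4 (Bub1, Ccnb1, Cdc25b and Kif20a) had only other spellings. Of those lower against both controls, 7 had TTTGAA, 0 had only other spellings and 3 had no promoter entry. The split by spelling was made after the values were seen and was not tested. A match of letters is a description and was not tested as a binding site.

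The libraries held 21992702 estimated counts in citrate buffer, 21977843 in saline and 22031249 in STZ. A count ratio below is a gene's share of its library total in one library over its share in the other, with an exact Clopper-Pearson 95% interval. Reads are not independent molecules, so the interval holds no more than counting error, and it sets library beside library. The fold change used by the study is (FPKM + 1)/(FPKM + 1), where FPKM is a level per kilobase of transcript and per sequenced library. Its thresholds for calling a gene are a log2 fold change above 0.62 or below -0.62. In bulk retina, fewer cells of a type and less RNA per cell cannot be told apart.

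All 42 genes were well expressed. Their FPKM, averaged over the 3 libraries, ran from 7.51 for Cdc25c to 102 for Top2a, with a median of 30.9 against 7.61 over all genes. For 41 of the 42 the level was above the median of all genes. The member with the fewest reads, Birc5, averaged 435 and the one with the most, Mki67, averaged 13090. Together the members took 0.455% of the counts in citrate buffer, 0.447% in saline and 0.429% in STZ.

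**Figure D2:**
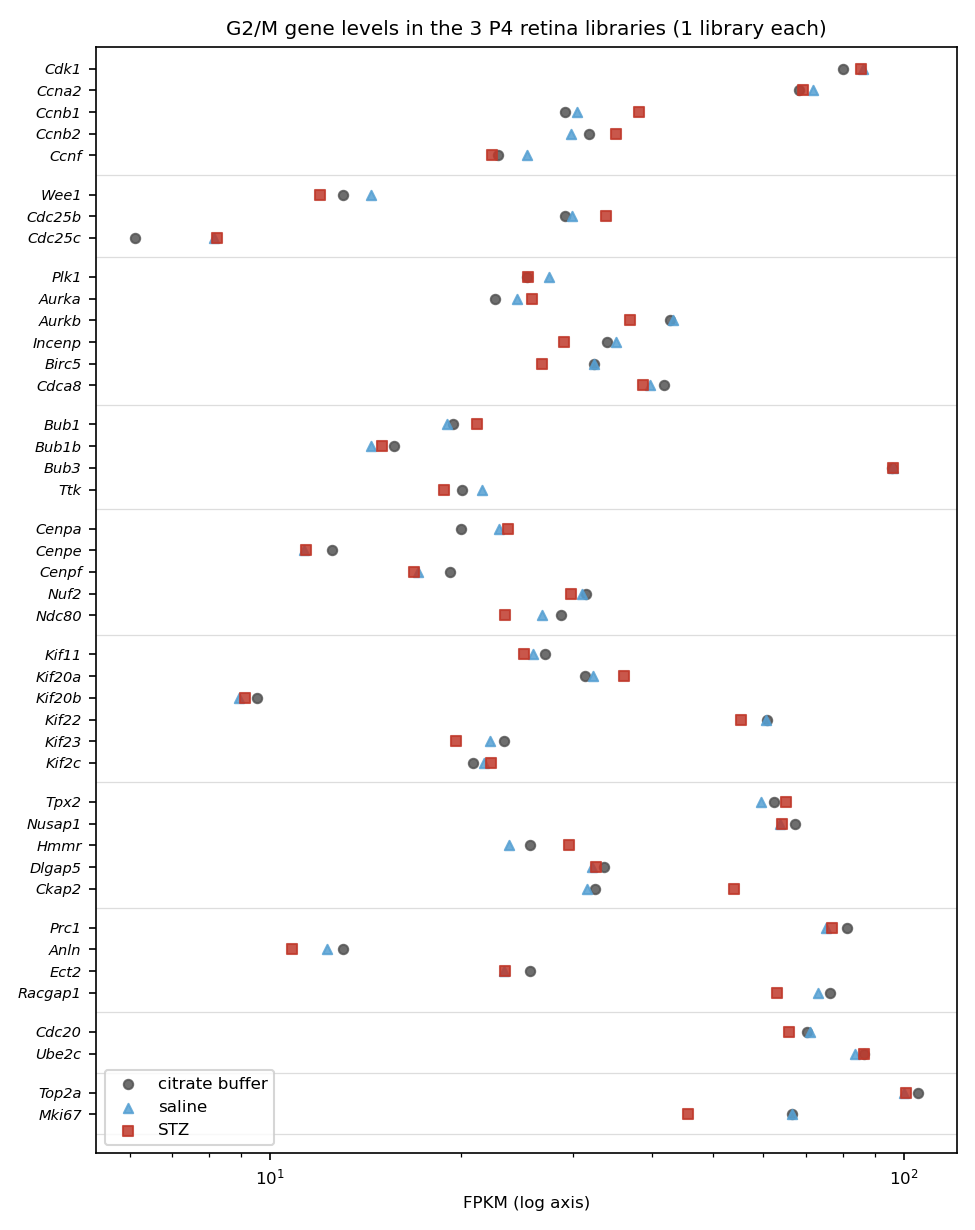
FPKM of the 42 G2/M genes (horizontal log axis) in the citrate buffer, saline and STZ libraries, 1 point per library, grouped by role. The 3 points of most genes lie close together, while Ckap2 stands at 54.0 in STZ against 32.5 and 31.6, and Mki67 at 45.6 against 66.5 in both controls.

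The members lay on both sides of the controls, as genes in general did. The median log2 fold change was -0.06 in STZ against citrate buffer, where all genes had 0.03, and 0.00 in STZ against saline, where all genes had 0.01. Between the control libraries it was -0.02, against 0.02 over all genes. With TMM factors the medians in STZ against citrate buffer were -0.105 for the members and -0.003 for all genes. The count ratio in STZ against citrate buffer was below 1 for 25 of 42 members (59.5%), as it was for 43.2% of all genes with a mean of at least 10 reads. Against saline 21 of 42 were below 1, where the background was 47.4%. Saline against citrate buffer also had 25 of 42 below 1, against 44.2%.

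Ckap2 alone passed the fold thresholds, upward, against either control, which is 1 of 42 (2.38%). The background above the upper threshold was 2.25% of all genes in STZ against citrate buffer and 2.04% against saline. No member was below the lower threshold, where the background was 1.04% and 1.75%. Between saline and citrate buffer 0 members passed, against 1.0% of all genes above and 0.429% below.

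Counting error alone was small enough to separate many smaller differences. Against citrate buffer the interval lay above 1 for 10 members (background 26.2% of genes with at least 10 reads) and below 1 for 16 (background 18.8%). Against saline it lay above 1 for 8 (background 26.9%) and below for 13 (background 23.5%). Saline against citrate buffer had 5 above (background 15.9%) and 7 below (background 12%). These shares grow with depth, and among the 8657 genes with at least as many reads as Birc5 the backgrounds were 29.2% above and 25.6% below in STZ against citrate buffer, 31.7% and 30.0% against saline, and 18.3% and 16.9% between the controls. With TMM-scaled totals the split of the members in that comparison was 8 above and 20 below, and in saline against citrate buffer it was 3 above and 12 below. The backgrounds under the same scaling were 20.8% above and 23.9% below, and 12.1% above and 15.6% below.

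Taking the STZ library against each control, 7 members were higher with both intervals above 1: Bub1, Ccnb1, Ccnb2, Cdc25b, Ckap2, Hmmr and Kif20a. That is 16.7% of the members, against 19.4% of genes with at least 10 reads and 23.2% of those as deep as the members. With TMM-scaled totals the intervals of Bub1 and Ccnb2 against citrate buffer included 1. Another 10 members were lower with both intervals below 1: Anln, Aurkb, Birc5, Cdc20, Incenp, Kif22, Kif23, Mki67, Ndc80 and Racgap1. That is 23.8%, against 14.8% and 20.7%. The comparisons share the STZ library, so the second is not an independent repeat of the first. The share of reads was highest of the 3 libraries in STZ for 13 members (31.0%, background 44.9%) and lowest there for 17 (40.5%, background 35.5%).

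**Figure D3:**
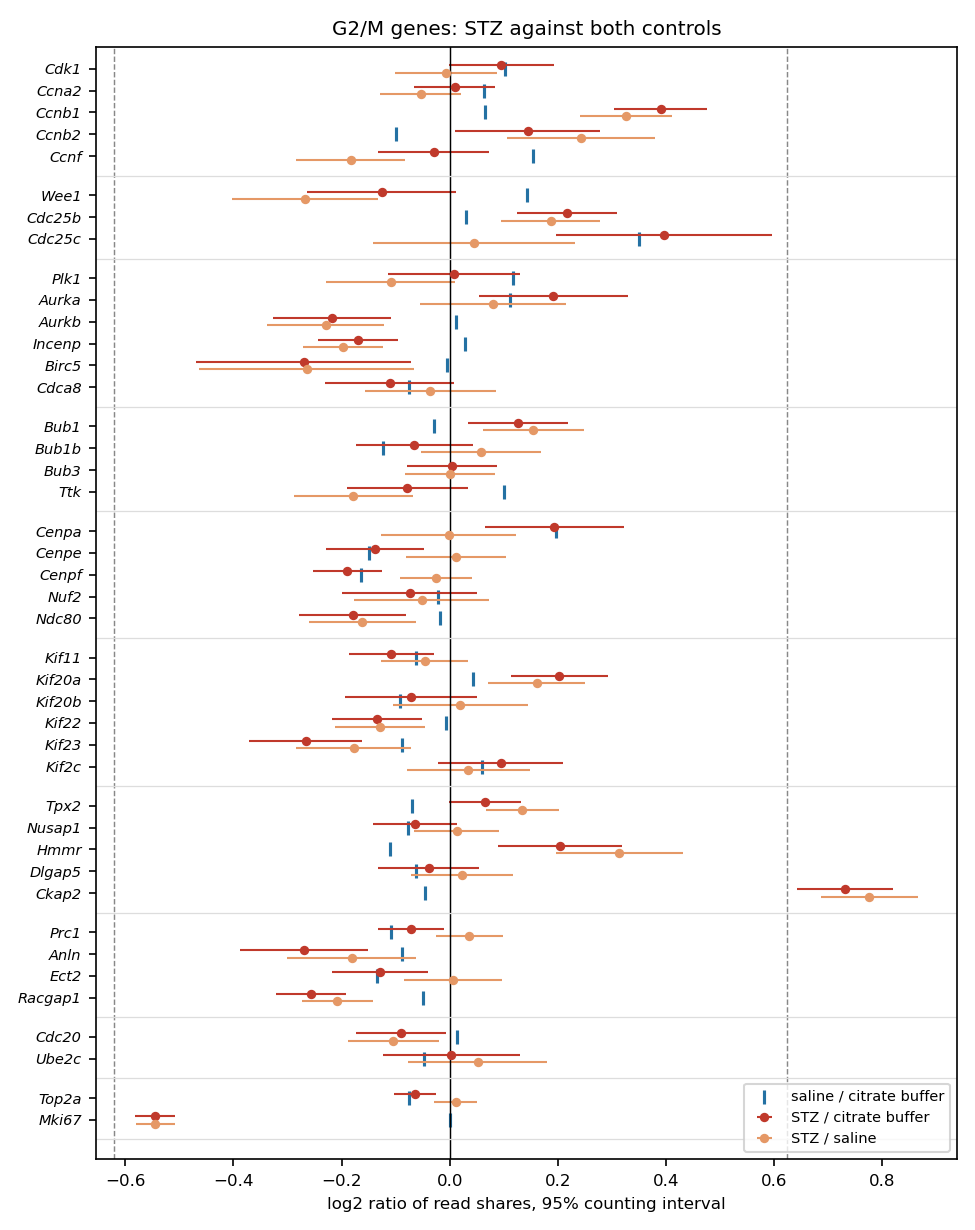
Log2 ratio of read shares (horizontal axis) of STZ against citrate buffer (red) and against saline (orange) with 95% counting intervals, and of saline against citrate buffer (blue bars), for the 42 genes by role. Dashed lines mark 0.62 and -0.62. Ckap2, with ratios of 1.66 and 1.71, and Mki67, with 0.686 in both comparisons, stand apart from the other members.

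The control libraries give a scale for these values. Saline against citrate buffer ranged from 0.892 for Cenpf to 1.28 for Cdc25c over the members. In STZ, 7 members were below this range against both controls: Aurkb, Incenp, Birc5, Kif23, Anln, Racgap1 and Mki67. Among the 8657 genes at least as deep, 12.9% were below it against both controls. Ckap2 was the 1 member above it against both controls, where 3.23% of those genes were. The upper end rests on Cdc25c. Without that gene it would be 1.15, set by Cenpa, and 3 members, Ccnb1, Hmmr and Ckap2, would be above it against both controls. The range comes from 1 library against 1 other and is not a replicate error.

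**Figure D4:**
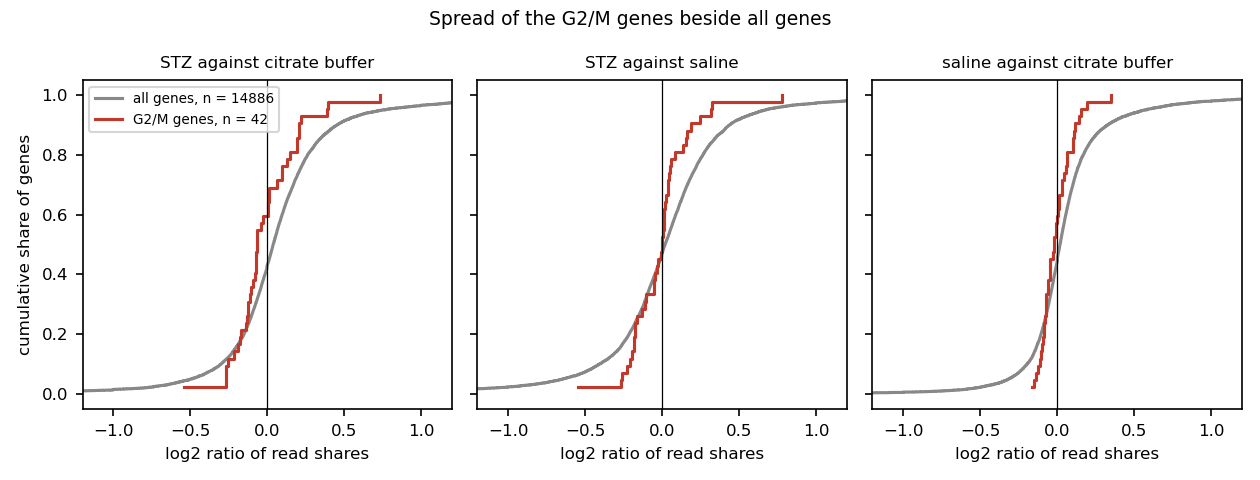
Cumulative share of genes (vertical axis) against the log2 ratio of read shares for the 42 G2/M genes (red) and the 14886 genes with at least 10 reads (grey) in each comparison. The axis is cut at 1.2 in either direction. The red curves are steeper than the grey ones. In STZ against citrate buffer 59.5% of the members and 43.2% of all genes lie below 0.

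Among the genes that start mitosis, the B-type cyclins were higher in STZ. Ccnb1, cyclin B1, which activates Cdk1, had 1950 reads in citrate buffer, 2038 in saline and 2560 in STZ. The STZ library was the highest and the controls lay close together, with ratios of 1.31 (1.24 to 1.39) against citrate buffer and 1.25 (1.18 to 1.33) against saline. Ccnb2, the related cyclin B2, had 869.75, 812.2 and 962.52 reads in the same order, a ratio of 1.11 (1.01 to 1.21) and 1.18 (1.08 to 1.30). With TMM-scaled totals the first of these intervals included 1. The summed ratio of the 2 cyclins was 1.25 (1.19 to 1.31) and 1.23 (1.17 to 1.30), where saline against citrate buffer was 1.01 (0.960 to 1.07).

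Their kinase did not follow. Cdk1 had 1693 reads in citrate buffer, 1816 in saline and 1812 in STZ, so STZ and saline were level at 0.995 (0.932 to 1.06) and citrate buffer was the low library. Ccna2, cyclin A2, which acts in S and G2 phase, had 2865.02, 2992.48 and 2888.87 reads and lay between the controls in STZ. Within a library, the FPKM of Ccnb1 over that of Cdk1 was 0.364 in citrate buffer, 0.354 in saline and 0.447 in STZ. Ccnb1 over Ccna2 was 0.428, 0.425 and 0.551. Ccnf, cyclin F, a substrate receptor for protein destruction in G2, had 1550, 1723 and 1521 reads, and its interval was below 1 only against saline, at 0.881 (0.821 to 0.944).

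The brake and the release of Cdk1 differed in direction. Wee1, the kinase that inhibits Cdk1, had 905, 998 and 831 reads and was lowest in STZ, at 0.917 (0.833 to 1.01) of citrate buffer and 0.831 (0.757 to 0.912) of saline. Cdc25b, a phosphatase that activates Cdk1, had 1774, 1811 and 2066 reads and was highest in STZ, at 1.16 (1.09 to 1.24) and 1.14 (1.07 to 1.21). Cdc25c, a related phosphatase, had 368 reads in citrate buffer against 469 in saline and 485 in STZ. Its ratio to citrate buffer was 1.32 (1.15 to 1.51), but saline had 1.28 (1.11 to 1.47) in the same comparison, and STZ against saline was 1.03 (0.907 to 1.17).

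Aurora B and 2 of its 3 partners were lower in STZ against both controls. Aurkb, Incenp, Birc5 and Cdca8 encode the chromosomal passenger complex, which corrects wrong kinetochore attachments and then marks the cleavage plane. Aurkb, the kinase, had 1487 reads in citrate buffer, 1498 in saline and 1281 in STZ, a ratio of 0.860 (0.797 to 0.927) and 0.853 (0.791 to 0.920). Incenp, its scaffold, had 3154, 3214 and 2809 reads, at 0.889 (0.845 to 0.936) and 0.872 (0.829 to 0.917). Birc5, survivin, had 462, 460 and 384, at 0.830 (0.723 to 0.952) and 0.833 (0.725 to 0.956). Cdca8, borealin, had 1184, 1123 and 1098, and its intervals of 0.926 (0.852 to 1.01) and 0.975 (0.897 to 1.06) included 1.

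Summed over the 4 genes, the complex was at 0.885 (0.853 to 0.917) of citrate buffer and 0.883 (0.852 to 0.916) of saline, while saline against citrate buffer was 1.00 (0.967 to 1.04). Aurka, the Aurora kinase of the spindle poles, was not lower. It had 813, 878 and 930 reads, with a ratio of 1.14 (1.04 to 1.26) to citrate buffer and 1.06 (0.963 to 1.16) to saline. Plk1, the Polo kinase, had 1096, 1188 and 1104 reads and lay within the span of the controls.

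Of the genes of cell separation, Kif23, Racgap1 and Anln were lower against both controls, and Ect2 and Prc1 were lower against citrate buffer only. Kif23 and Racgap1 encode centralspindlin, the motor and GTPase regulator that bundle microtubules at the division plane. Kif23 had 1640 reads in citrate buffer, 1541 in saline and 1366 in STZ, at 0.831 (0.773 to 0.894) and 0.884 (0.822 to 0.952). Racgap1 had 4201, 4058 and 3522, at 0.837 (0.800 to 0.875) and 0.866 (0.827 to 0.906). STZ was the lowest library for both genes. Their summed ratio was 0.835 (0.804 to 0.868) and 0.871 (0.838 to 0.905), and saline against citrate buffer was 0.959 (0.925 to 0.995), so the controls also differed, by less.

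Anln, anillin, a scaffold of the contractile ring, had 1295.75, 1218.15 and 1077.31 reads, at 0.830 (0.764 to 0.900) and 0.882 (0.812 to 0.958). Ect2, the exchange factor that activates RhoA at the cleavage site, had 2151, 1958 and 1971 reads, and Prc1, which crosslinks the central spindle, had 4430, 4107 and 4221. Both were lower in STZ than in citrate buffer, at 0.915 (0.860 to 0.973) and 0.951 (0.912 to 0.992), but the saline library had still fewer reads of both.

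Spindle assembly genes held the largest increase. Ckap2, which promotes microtubule growth and is known as a spindle pole protein, had 1659 reads in citrate buffer, 1606 in saline and 2757 in STZ. Its ratio was 1.66 (1.56 to 1.76) against citrate buffer and 1.71 (1.61 to 1.82) against saline, where the controls differed by 0.969 (0.904 to 1.04). The study's fold was 1.64 and 1.69. Within a library, the FPKM of Ckap2 over that of Nusap1, another spindle microtubule protein, was 0.483 in citrate buffer, 0.495 in saline and 0.841 in STZ.

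Hmmr, a spindle microtubule adaptor, had 1161, 1075 and 1339 reads, at 1.15 (1.06 to 1.25) and 1.24 (1.15 to 1.35). Tpx2, the activator of Aurora A on the spindle, had 3562, 3392 and 3731, at 1.05 (0.998 to 1.10) and 1.10 (1.05 to 1.15), with an interval above 1 against saline only. Nusap1 (2780, 2633 and 2663 reads) and Dlgap5 (1912, 1831 and 1864), which stabilises spindle fibres, had intervals that included 1 in either comparison. All 5 genes were above 1 against saline, Nusap1 only without rescaling of the totals, and all 5 were below 1 in saline against citrate buffer, so the low saline values are part of the first count.

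The kinesins, motors that move along spindle microtubules, split. Kif20a, which carries the passenger complex to the central spindle, had 1856.27, 1910.15 and 2139.91 reads, at 1.15 (1.08 to 1.23) and 1.12 (1.05 to 1.19). It was higher in STZ, while 3 of the 4 genes of its cargo were lower. Kif22, a chromosome arm motor, had 2459, 2447 and 2244 reads and was lower, at 0.911 (0.860 to 0.965) and 0.915 (0.864 to 0.969). Kif11, which pushes the spindle poles apart, had 2683, 2569 and 2494, with an interval below 1 against citrate buffer only. Kif2c (1183, 1232 and 1265), which takes microtubules apart, and Kif20b (1112, 1043 and 1060) had intervals that included 1.

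The checkpoint genes lay near the controls. Bub3 had 2320 reads in citrate buffer, 2324 in saline and 2331 in STZ, the closest agreement of any member, with ratios of 1.00 (0.947 to 1.06) and 1.00 (0.944 to 1.06). Bub1, a checkpoint kinase at the kinetochore, had 1818, 1781 and 1987 and was higher, at 1.09 (1.02 to 1.16) and 1.11 (1.04 to 1.19). With TMM-scaled totals its interval against citrate buffer included 1. Bub1b, BubR1, which inhibits the anaphase-promoting complex, had 1432, 1314 and 1371 reads and lay between the controls. Ttk, the kinase that starts the checkpoint, had 1340, 1435 and 1271, at 0.947 (0.876 to 1.02) and 0.884 (0.819 to 0.954).

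At the kinetochore, Ndc80, the microtubule-binding subunit, had 1786, 1763 and 1580 reads, at 0.883 (0.825 to 0.945) and 0.894 (0.835 to 0.957). Its FPKM were 28.7, 26.9 and 23.4, a ratio of 0.816 to citrate buffer, lower than the count ratio. The transcript length implied by count over FPKM therefore differed between the libraries by 8.2% for this gene, the largest such gap among the members in this comparison. Nuf2, its binding partner, had 1075, 1058 and 1023 reads, with intervals that included 1. Cenpa, the histone variant that marks centromeres, had 927, 1061 and 1062 reads, Cenpe, a kinetochore motor, had 2092, 1884 and 1904, and Cenpf had 4152, 3702 and 3648. For these 3 genes saline and STZ were alike and citrate buffer stood apart, so an interval that excluded 1 against citrate buffer included 1 against saline.

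The partners of the anaphase-promoting complex differed little. Cdc20, its activator in mitosis, had 2381, 2403 and 2241 reads, at 0.940 (0.886 to 0.996) and 0.930 (0.878 to 0.986). Ube2c, the enzyme that hands it ubiquitin, had 1009, 975 and 1013 reads, at 1.00 (0.918 to 1.09) and 1.04 (0.948 to 1.13).

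Mki67 and Top2a, the usual RNA markers of dividing cells, separated. Mki67 encodes Ki-67, which coats mitotic chromosomes. It had 14619.81 reads in citrate buffer, 14607.96 in saline and 10042.37 in STZ. The controls were equal at 1.00 (0.977 to 1.02), and STZ was at 0.686 (0.668 to 0.703) against citrate buffer and 0.686 (0.669 to 0.703) against saline. Its study fold was 0.690 in either comparison, short of the lower threshold. Top2a, topoisomerase II alpha, which untangles sister chromosomes, had 10953, 10390 and 10495 reads, at 0.957 (0.931 to 0.983) and 1.01 (0.981 to 1.04). Mki67 FPKM over Top2a FPKM was 0.632 in citrate buffer, 0.666 in saline and 0.453 in STZ.

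Mki67 weighed heavily in any sum over the members. It made up 14.6% of their reads in citrate buffer. The summed reads were 100161 in citrate buffer, 98338 in saline and 94415 in STZ, a ratio of 0.941 (0.933 to 0.949) and 0.958 (0.949 to 0.966). Without Mki67 they were 85541, 83730 and 84373, a ratio of 0.985 (0.975 to 0.994) to citrate buffer and 1.01 (0.996 to 1.01) to saline. Of the amount by which the members' summed share of the library total was lower in STZ than in citrate buffer, Mki67 alone accounted for 77.7%. Mki67 is 1 of 5 members with fractional counts, beside Ccna2, Ccnb2, Kif20a and Anln, and for these the intervals leave out the error of the authors' count estimation. Over the 37 members with whole counts the reads were 78654, 76798 and 77304.

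Other genes of the same machinery were taken from lists of complexes and pathways. Over 123 of 126 listed genes in the table, not counting DNA replication, the median log2 fold change was -0.10 against citrate buffer and -0.13 against saline, where saline against citrate buffer had 0.03. Intervals were below 1 against both controls for 47 and above for 11. The backgrounds were 14.8% below and 19.4% above among genes with at least 10 reads. Among genes as deep as the members they were 20.7% and 23.2%. Both pairs apply to such counts in each list below, also where only the first is printed. For list genes as deep as the members the second pair is the closer background. Whether these lists differ from the members was not tested.

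Condensin, which compacts mitotic chromosomes, had the lowest median of the mitotic lists. All 7 of its 8 listed genes that were in the table were below 1 against citrate buffer, and 5 of them, Smc2, Smc4, Ncapg, Ncapg2 and Ncaph2, had intervals below 1 against both controls. Ncapg2, a condensin II subunit, had 1509, 1638 and 1007 reads, at 0.666 (0.614 to 0.722) and 0.613 (0.566 to 0.664). Smc4, a core condensin ATPase, was at 0.787 and 0.759, and Ncapd2 at 0.993 and 1.00. Reads summed over the list were 19503, 19566 and 16711.

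Cohesin and its regulators, 15 genes, had 13 below 1 against citrate buffer and 6 with intervals below 1 against both controls. Esco2, which locks cohesin onto DNA during S phase, had 1362, 1484 and 934 reads, at 0.685 (0.629 to 0.745) and 0.628 (0.578 to 0.682), and Pttg1, securin, which holds the cohesin protease inactive, had 778, 782 and 790. Of 25 other kinetochore and checkpoint genes, 11 were below 1 by interval against both controls and 1, Mad1l1, was above, at 1.22 (1.08 to 1.38) and 1.18 (1.04 to 1.33). Of 30 other spindle and cytokinesis genes, 12 were below and 4, Tacc3, Gtse1, Tubb4b and Troap, were above. Gtse1, a G2 microtubule protein that restrains p53, was the highest of these at 1.36 (1.26 to 1.48) and 1.37 (1.26 to 1.48), and Kif15, a spindle kinesin, the lowest at 0.794 and 0.768. The 15 core genes of the anaphase-promoting complex had 3 below (Anapc7, Anapc16 and Cdc27) and 3 above (Anapc5, Cdc16 and Cdc23). Their median log2 fold change was 0.05 against citrate buffer and -0.03 against saline, and saline against citrate buffer also had 0.05.

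Among 16 regulators of G2/M transcription, 4 were lower by interval against both controls, Foxm1, Mybl2, E2f4 and Tfdp2, and 0 were higher. The names Foxm1 and E2f4 were added after their values were seen, as were those of genes named only in counts. Foxm1, which activates CHR promoters late in G2, had 2272, 2662 and 1908 reads, at 0.838 (0.788 to 0.891) and 0.715 (0.674 to 0.759). Mybl2, B-Myb, which drives CHR promoters in G2, had 1227, 1315 and 907 reads, at 0.738 (0.676 to 0.805) and 0.688 (0.632 to 0.749), and Tfdp2, a DREAM and E2F partner, was at 0.774 and 0.718. Rbl2, p130, and Lin37, subunits of DREAM, had the 2 highest ratios of the list to citrate buffer. These were 1.04 (0.965 to 1.11) and 1.10 (0.951 to 1.26), with intervals that included 1. E2f4, also a subunit of DREAM, was at 0.857 (0.791 to 0.930), and 11 of the 16 regulators were below 1 against citrate buffer. A DNA replication list of 20 genes stood lower. Its median log2 fold change was -0.29 against citrate buffer and -0.28 against saline. By interval against both controls, 15 genes were below (background 14.8%) and 1, Pola1, a polymerase subunit, was above (background 19.4%). Mcm2, a helicase subunit, was at 0.715 and 0.699.

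The 15 genes of the G2 arrest list were mixed. Cdkn1a, p21, had 434 reads in citrate buffer, 449 in saline and 1496 in STZ, at 3.44 (3.09 to 3.84) and 3.32 (2.99 to 3.70). Ccng1, cyclin G1, a p53 target, had 1942, 1896 and 6882, at 3.54 (3.36 to 3.72) and 3.62 (3.44 to 3.81). These 2 passed the upper threshold against both controls. Gadd45b and Plk2 passed it against citrate buffer only and are named here after their values were seen. Gadd45g, a stress protein that can inhibit Cdk1 and is also high in newborn neurons, had 1426, 1420 and 999 reads, at 0.699 and 0.702. The list median was -0.11 in either comparison. By interval against both controls, 6 genes were lower (background 14.8%) and 3, Cdkn1a, Ccng1 and Plk2, were higher (background 19.4%).

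**Figure D5:**
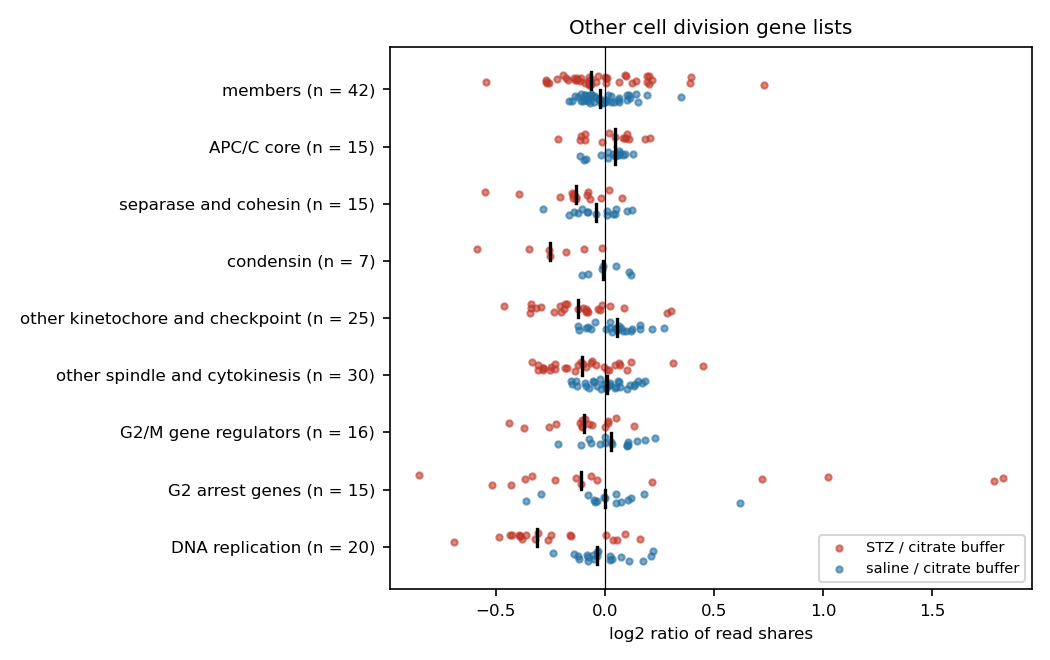
Log2 ratio of read shares (horizontal axis) for each gene of the members and of 8 other cell division lists, STZ against citrate buffer in red and saline against citrate buffer in blue, with black bars at the medians. The red median of the condensin and DNA replication lists lies farthest below 0, and Cdkn1a and Ccng1 are the points beyond 1.5 in the G2 arrest list.

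Markers of cell types in the retina moved with the STZ library too. Progenitor markers, 13 of 14 in the table, lay at a median of -0.35 (log2 fold) against either control. By interval against both controls, 10 of these 13 were lower (background 14.8%). Their summed reads were 52581, 54414 and 42922, none was at 0, and the most abundant, Pax6, was at 1.03 and 1.01 while Rax was at 0.867 and 0.774. The 7 photoreceptor precursor markers, led by Crx and Nrl, summed to 52705, 49318 and 51600 reads. That sum hides a split, with 4 higher (background 19.4%) and 3 lower (background 14.8%) by interval against both controls. Count ratios of these markers to citrate buffer ran from 0.857 to 1.63. The 10 markers of early-born neurons, led by Tfap2b and Stmn2, had 19707, 18520 and 23926 reads. By interval against both controls, 7 of them were higher (background 19.4%) and 1 was lower (background 14.8%). Retinal markers were thus abundant in every library, as the tissue label says.

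Markers of microglia and endothelial cells, which the paper stained within the retina, differed as well, as did those of lens, pigment epithelium and blood. The 12 microglia markers, led by C1qb and C1qa, summed to 1465, 1810 and 4161 reads, with 12 of 12 higher by interval against both controls (background 19.4%). The 9 endothelial markers, led by Kdr and Cldn5, summed to 14411, 15682 and 10666. Kdr held most of the reads of this list (13149, 14564 and 9972), and the other 8 markers summed to 1262, 1118 and 694. Whether the Kdr reads came from endothelial cells was not tested. The median count ratio of the 9 was 0.524 against citrate buffer and 0.439 against saline. The 9 lens markers, led by Crygd and Cryba1, had 261, 575 and 2599 reads. Pigment and ciliary markers, 9 genes led by Aldh1a1 and Pmel, had 2575, 9609 and 2647, so the saline library stood apart. The only markers at 0 in a library were Crybb2 of the lens and Rpe65 of the pigment epithelium, both in citrate buffer. Blood markers, 5 of 6 in the table and led by Hbb and Hbb-b1, had 498, 705 and 411. Microglia and endothelial cells can divide, and the part of any of these cell types in the G2/M values was not tested.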

How the data were processed

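The authors mapped reads with TopHat2 after FastQC (build rn6 per the labels' processing notes, versions not given) and deposited FPKM, TPM and an estimated count for each gene and library. According to the methods, reads with several genomic locations were discarded. Of the deposited counts, 12.9% (citrate buffer), 13.2% (saline) and 13.1% (STZ) were fractional, and they were rounded for intervals.

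Folds were computed from FPKM with a pseudocount of 1 and the study's thresholds, 0.62 and -0.62 on the log2 scale. Lists were summarised over the 14886 genes that averaged 10 counts or more. With 1 library per condition no count model was fitted and no p-value given. TMM factors came from edgeR 4.0.16 and size factors from DESeq2 1.42.0 in R 4.3.3. Python 3.11.15, numpy 2.4.6, pandas 2.3.3, scipy 1.17.1 and matplotlib 3.10.9 were used for the rest. The interval calculation was tested on simulated data. Promoters are from NCBI RefSeq, assembly GRCr8, matched by gene identifier, and were not read from rn6.

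Any of the 42 members could be named. From each other list came the 2 highest and 2 lowest count ratios in STZ against citrate buffer and genes past the thresholds against both controls, from each cell type list its 2 most abundant genes, and always Cdkn1a. Not every gene so chosen is printed. The members and lists were chosen with earlier results of these data known. The background of equally deep genes, the range of the control libraries and sums without Mki67 or Kdr were added after the data were seen. So were the FPKM ratios of a member over another within a library and the sums over complexes. These ratios and sums restate the differences of their genes and are not further support.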

Additional observations from a re-analysis of the deposited data

How the results depend on the processing

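With fold thresholds of 2 and 0.5 in place of those of the study, the count of members past them was 0 in STZ against citrate buffer and 0 in STZ against saline, since Ckap2 lay below 2. The other settings left 1 member in each, and 0 between the controls. The members' median log2 fold change in STZ against citrate buffer was -0.063 from FPKM, -0.105 with TMM factors, -0.102 with median-of-ratios factors and -0.029 against the mean of both controls. In STZ against saline the median of 0.0017 changed sign on CPM (-0.00063), with TMM (-0.0183) and with median-of-ratios factors (-0.0185), so it has no direction. In saline against citrate buffer -0.024 became -0.042 and -0.039 with the same factors. TMM scaling moved the median of all genes in STZ against citrate buffer from 0.035 on CPM to -0.003, and its interval calls from 3903 above and 2802 below to 3090 and 3555. On 99% intervals 9 members were above and 14 below in that comparison, where all genes had 19.8% above and 14.6% below. The side of 1 was not the same on every scale (FPKM, TPM, and CPM with or without factors) for some members. Against citrate buffer these were Bub3, Ccna2, Plk1 and Ube2c, and against saline Bub3, Cenpa, Cenpe, Ect2, Nusap1 and Top2a. For Cenpa the count ratio to saline was already below 1 without factors, at 0.999, and only FPKM and TPM put it above. No paired analysis was possible because each condition has 1 library, and no replicate could be left out. Spread between animals is unknown, and depth limits Birc5 and Cdc25c most among the members.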
